A study of Rattus norvegicus with 4 samples.

Results

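The mitochondrial carrier family (Slc25a genes) was followed across 4 arrays of rat skeletal muscle. Genes were taken by name: every probe set of the platform annotation with 1 gene symbol starting with Slc25a belonged to the family. Where a gene had several probe sets, the brightest on average over the 4 arrays stood for it. This gave 40 genes out of 14218 with a probe set. Of the 40, 29 lay above the floor (a signal of 30.1, the median of all values) on all 4 arrays, 4 on some of them and 7 on none. The 33 genes not at the floor throughout are compared below. The 12 genes with more than 1 probe set had 18 further probe sets, of which 7 were above the floor on all 4 arrays, and these are given where they differ.

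The carriers form a family of inner mitochondrial membrane proteins, a few of which sit in the peroxisome or in the outer membrane. Each moves a small set of solutes, often by exchanging one for another: ADP for ATP, phosphate with protons, aspartate for glutamate, acylcarnitine for carnitine. In muscle they link the respiratory chain and ATP synthase inside the mitochondrion to the ATP used by contraction outside it, and they carry the reducing equivalents and fatty acids that feed oxidation.

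The study used rats of the strain F344/DuCrlCrlj in a model of intermittent claudication, in which reduced blood flow to the hindlimb shortens walking distance. The groups were ischemia + ES (ischemic muscle made to contract by electrical stimulation, ES), ischemia + exercise, ischemia without treatment, and a sham group whose procedure the labels do not describe. One array stood for each group (n = 1), so differences between arrays cannot be set against a replicate spread, and no SD, SE or p-value can be given. Which muscle was taken, how many animals lay behind an array, whether RNA was pooled, the animals' age and sex, and the timing of ES, exercise and sampling are not stated in the labels. The comparisons of ES with ischemia, of exercise with ischemia and of ischemia with sham all use the same ischemia array, so their ratios are not independent of one another. In whole muscle, fewer cells of a type and less RNA per cell cannot be told apart.

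The arrays were alike in overall brightness, with median signals between 29.0 and 31.8 and 49.3% to 51.1% of 31099 probe sets above the floor. The 7 skeletal muscle markers on the array, among them Acta1, Ckm and Myh4, were above the floor on all 4 arrays, and the 3 liver markers were below it on all 4. The muscle markers summed to 77701 with ischemia + ES, 74365.5 with ischemia + exercise, 68208.5 with ischemia and 74272 in sham. Between ischemia and sham, 6 of these 7 had a log2 ratio below 0, where 45.6% of all genes compared did. Between ES and ischemia, 6 of 7 were above 0, where 56.0% of all genes were. The marker medians were -0.14 and 0.28, or -0.06 and 0.11 after quantile normalization. The 9 slow-fibre markers summed to signals of 20851 with ischemia + ES, 66909 with ischemia + exercise, 10198 with ischemia and 57854 in sham. The 10 macrophage markers summed to 4864 with ischemia + ES, 1689 with ischemia + exercise, 3949.8 with ischemia and 1662 in sham, and the 7 endothelial markers to 4169 with ischemia + ES and between 2005 and 2143 on the other 3 arrays. The ratio of the actin 3′ to 5′ signal, which grows as RNA degrades, was 5.94 with ischemia + ES, 4.34 with ischemia + exercise, 3.81 with ischemia and 4.38 in sham. The part of cell make-up and RNA quality in the carrier ratios was not tested.

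Upstream sequence is shown for 5 carriers: Slc25a25, the ATP-Mg/phosphate carrier that was over 2-fold lower with ES than with ischemia, and the 4 carriers that were at least 1.5-fold lower with ischemia than in sham. Each run is the 250 bases before the annotated start, read 5′ to 3′ on the gene's own strand, from RefSeq on build GRCr8. Capitals mark matches on either strand to 5 motifs: the cyclic AMP response element TGACGTCA, the estrogen-related receptor element AAGGTCA, the GABP element CCGGAAG, the nuclear respiratory factor element GCGCATG and the E-box CAGCTG. No 2 of these matches overlapped.
Slc25a25: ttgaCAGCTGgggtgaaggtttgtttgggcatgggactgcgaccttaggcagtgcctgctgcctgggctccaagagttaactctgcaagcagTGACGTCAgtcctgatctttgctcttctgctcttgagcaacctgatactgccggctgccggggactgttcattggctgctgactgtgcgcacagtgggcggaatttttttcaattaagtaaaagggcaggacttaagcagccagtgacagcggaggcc
Slc25a34: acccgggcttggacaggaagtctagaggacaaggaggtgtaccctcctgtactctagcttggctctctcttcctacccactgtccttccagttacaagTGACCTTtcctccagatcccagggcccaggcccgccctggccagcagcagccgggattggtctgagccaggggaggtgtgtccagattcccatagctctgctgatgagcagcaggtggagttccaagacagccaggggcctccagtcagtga
Slc25a20: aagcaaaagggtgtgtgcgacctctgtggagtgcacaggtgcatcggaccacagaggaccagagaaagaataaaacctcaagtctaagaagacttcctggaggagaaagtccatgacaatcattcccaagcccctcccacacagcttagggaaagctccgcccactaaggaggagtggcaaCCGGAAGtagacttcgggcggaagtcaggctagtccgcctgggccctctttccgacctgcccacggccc
Slc25a33: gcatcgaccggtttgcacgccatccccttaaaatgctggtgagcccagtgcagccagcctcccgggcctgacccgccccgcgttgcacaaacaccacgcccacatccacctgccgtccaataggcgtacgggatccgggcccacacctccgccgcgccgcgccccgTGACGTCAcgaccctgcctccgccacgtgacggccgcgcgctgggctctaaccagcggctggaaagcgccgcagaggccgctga
Slc25a29: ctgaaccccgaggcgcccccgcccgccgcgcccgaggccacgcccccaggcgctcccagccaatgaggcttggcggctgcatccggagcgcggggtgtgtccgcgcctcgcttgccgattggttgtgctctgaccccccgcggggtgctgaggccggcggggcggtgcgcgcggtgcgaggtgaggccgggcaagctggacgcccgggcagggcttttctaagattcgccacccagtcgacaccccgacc

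The runs lie at chr3:36116582-36116831 (minus strand) for Slc25a25, chr5:159219893-159220142 (minus) for Slc25a34, chr8:118243323-118243572 (plus) for Slc25a20, chr5:165502974-165503223 (minus) for Slc25a33 and chr6:133517198-133517447 (minus) for Slc25a29. Slc25a25 held a cyclic AMP response element whose first base was 158 bases upstream of the start, and an E-box at 246 bases. The same response element began 84 bases upstream in Slc25a33, a GABP element 69 bases upstream in Slc25a20 and an estrogen-related receptor element 152 bases upstream in Slc25a34. In Slc25a29, 74.8% of the bases were G or C and none of the 5 motifs was found in this window. Of the 34 carriers with a promoter in the table, 2 (5.88%) held the cyclic AMP response element, Slc25a25 and Slc25a33, against 1.70% of all 27457 promoters. The estrogen-related receptor element was held by 1 of 34 (2.94%) against 3.77% of all promoters, and the GABP element by 5 of 34 (14.7%) against 7.74%. The nuclear respiratory factor element was held by 2 of 34 (5.88%) against 3.45%, and the E-box by 4 of 34 (11.8%) against 11.9%. These matches describe letters only.

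As a family, the carriers were mostly a little lower with ischemia than in sham and a little higher with ES than with ischemia. Between ischemia and sham, 26 of 33 carriers had a log2 ratio below 0 (78.8%, against 45.6% of all 10092 genes compared) and 7 above 0. Their median log2 ratio was -0.16, with the median of all genes at 0.00. Between ischemia + ES and ischemia, 22 of 33 were above 0 (66.7%, against 56.0% of all genes), 10 below and 1 at 0, with a median of 0.19 for the carriers and 0.05 for all genes. Between ischemia + exercise and ischemia, 21 of 33 were above 0 (63.6%, against 47.7% of all genes), with medians of 0.07 and 0.00 in the same order. ES and exercise differed little over the family as a whole. With ES 17 of 33 carriers were higher than with exercise (51.5%, against 54.5% of all genes) and 16 lower. The carrier median was 0.01, or -0.03 after quantile normalization, with the median of all genes at 0.03. Against sham the carrier median was -0.01 for ischemia + ES, with the median of all genes at 0.05. This carrier median was -0.07 after quantile and -0.06 after loess normalization. For ischemia + exercise against sham the carrier median was -0.09, with the median of all genes at 0.01.

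**Figure D1:**
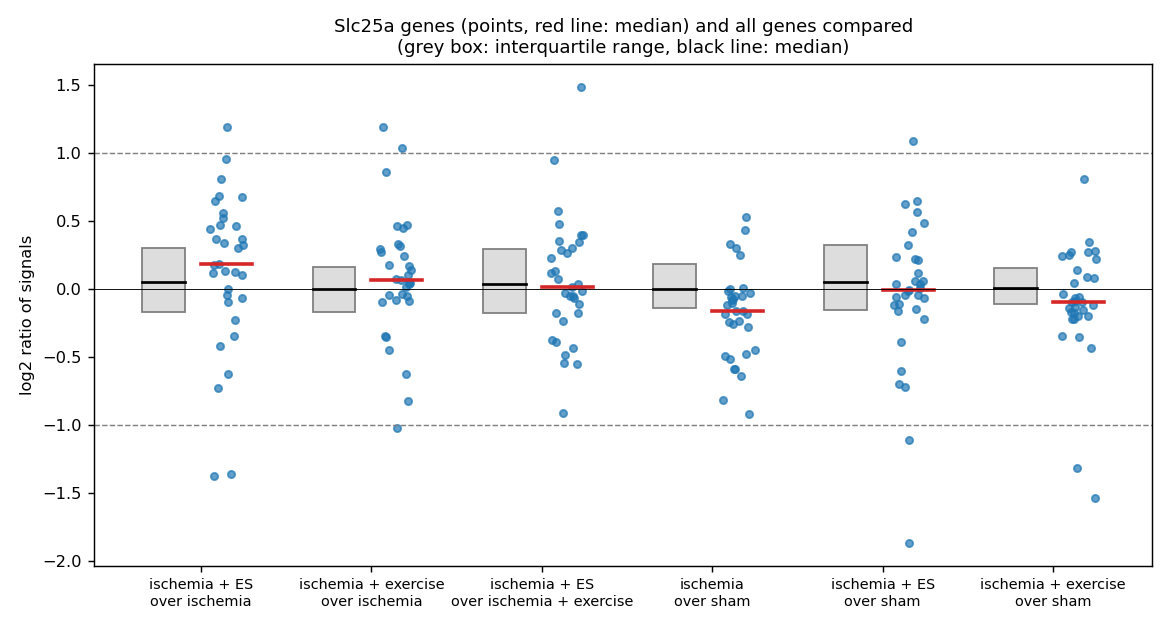
Log2 ratio of signals (vertical axis) for 6 pairs of arrays; blue points are the 33 carriers, the red line their median, the grey box the interquartile range of all 10092 genes and the black line their median. The carrier median lies at 0.19 for ischemia + ES over ischemia and at -0.16 for ischemia over sham, while single carriers spread far beyond the box on both sides.

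The position of the ischemia array is clearer when each gene is read across all 4 arrays. Among the 29 carriers above the floor on all 4 arrays, the ischemia signal was the lowest for 17 (58.6%), where it was the lowest for 26.6% of all 8828 such genes. The sham signal was the highest for 11 of 29 (37.9%), against 17.9% of all such genes. The ischemia + ES signal was the highest for 11 as well, against 39.0% of all such genes, and so no more often than elsewhere. After quantile and cyclic loess normalization, ischemia was the lowest for 15 and 16 of the 29 carriers. These shares describe 4 arrays and carry no test.

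Few carriers passed 2-fold. None of 33 did between ischemia and sham, where 0.783% of all genes were 2-fold higher and 0.862% 2-fold lower. With ES against ischemia, Slc25a45 was higher, 1 of 33 where 2.28% of all genes were, and Slc25a25 and Slc25a51l1 were lower, 2 of 33 where 0.793% were. With exercise against ischemia, Slc25a34 and Slc25a13 were higher, 2 of 33 where 1.14% of all genes were, and Slc25a22 was lower, 1 of 33 where 0.872% were. With ES against exercise, Slc25a22 was higher, 1 of 33 where 2.95% of all genes were, and no carrier was lower, where 1.1% were. With ES against sham, Slc25a45 was higher, 1 of 33 where 3.78% of all genes were, and Slc25a25 and Slc25a51l1 were lower, 2 of 33 where 1.06% were. With exercise against sham, no carrier was 2-fold higher, where 0.258% of all genes were, and Slc25a22 and Slc25a25 were lower, 2 of 33 (6.06%) where 0.188% were. All of these counts are of 0 to 2 genes. Apart from Slc25a25, the carriers named here had signals of at most 130.4 (Slc25a51l1 with ischemia), and dim signals are the least precise.

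A limit of 1.5-fold showed more of the low on the ischemia array. With ischemia against sham, 4 of 33 carriers were 1.5-fold lower (12.1%, against 3.19% of all genes), namely Slc25a34, Slc25a20, Slc25a33 and Slc25a29, and 0 were higher, where 4.94% were. With ES against ischemia, 6 were 1.5-fold higher (18.2%, against 9.8% of all genes), namely Slc25a45, Slc25a34, Slc25a20, Slc25a33, Slc25a5 and Slc25a42. The 4 that were lower there (12.1%, against 4.72%) were Slc25a25, Slc25a51l1, Slc25a30 and Slc25a38. With exercise against ischemia, Slc25a34, Slc25a13 and Slc25a33 were higher (9.09%, against 4.02%) and Slc25a22, Slc25a25 and Slc25a1 lower (9.09%, against 4.24%). With ES against exercise, Slc25a22 and Slc25a45 were higher (6.06%, against 10.5%) and Slc25a51l1 was lower (3.03%, against 4.6%).

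**Figure D2:**
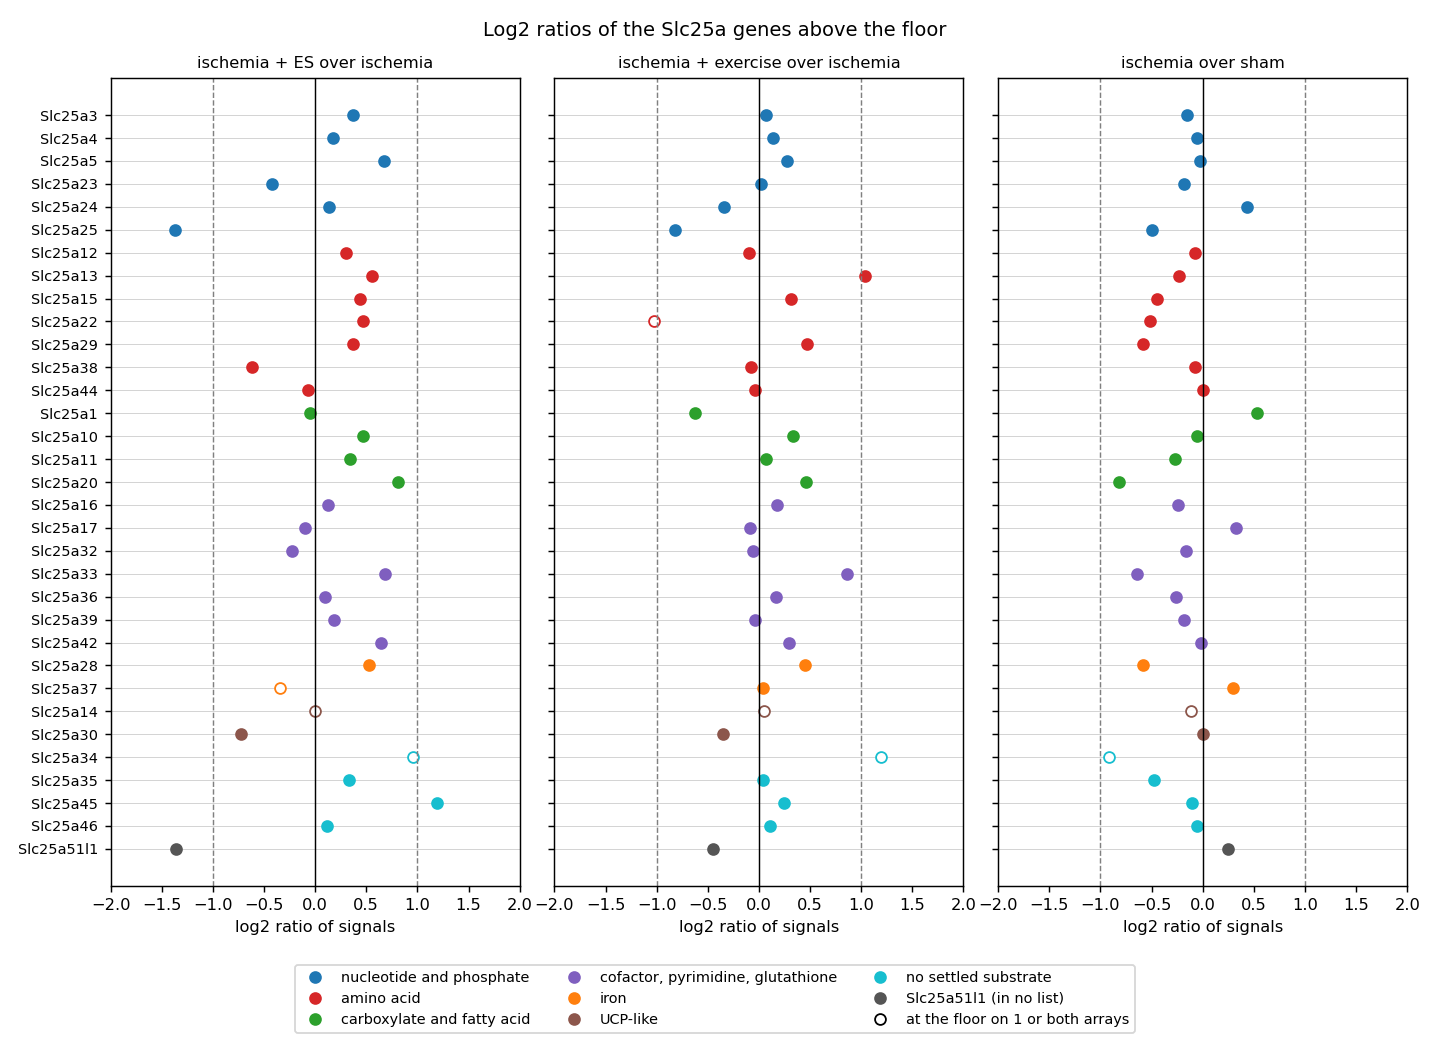
Log2 ratio of signals (horizontal axis) of the 33 carriers, 1 row per gene, coloured by what they carry, for ischemia + ES over ischemia, ischemia + exercise over ischemia and ischemia over sham; open circles have 1 or both arrays at the floor and dashed lines mark 2-fold. Slc25a25 and Slc25a51l1 stand at the left of the first panel, at -1.37 and -1.36, and most points of the third panel lie left of 0.

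The ADP/ATP exchangers, through which ATP leaves the mitochondrion, were nearly level across arrays for one form and highest with ES for the other. Slc25a4 (ANT1), the form of muscle and heart, had signals of 10678 with ischemia + ES, 10411 with ischemia + exercise, 9467 with ischemia and 9823 in sham. The arrays differed by 1.13-fold at most for this gene, and its log2 ratio of -0.05 for ischemia against sham turned to 0.02 after quantile and 0.01 after loess normalization. Its log2 ratio for ES against exercise, 0.04, turned to -0.07 after quantile normalization. Slc25a5 (ANT2), the form found in many tissues and in dividing cells, had signals of 1026 with ischemia + ES, 777 with ischemia + exercise, 643 with ischemia and 655 in sham. It was 1.60-fold higher with ES than with ischemia and 1.21-fold higher with exercise, while ischemia and sham lay close together (log2 -0.03). Slc25a31, the form of the testis, was under the floor on all 4 arrays. The summed endothelial signal was also highest with ES, and its part in the Slc25a5 ratio was not tested.

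Phosphate enters the mitochondrial matrix through Slc25a3, which had signals of 7021 with ischemia + ES, 5687 with ischemia + exercise, 5427 with ischemia and 6051 in sham. It was 1.29-fold higher with ES than with ischemia and 1.11-fold lower with ischemia than in sham. Both ratios shrank under quantile normalization. The log2 ratio for ES against ischemia went from 0.37 to 0.18, or 0.38 after loess. The log2 ratio for ischemia against sham went from -0.16 to -0.03, or -0.11 after loess. The exercise and ischemia arrays differed by a log2 ratio of 0.07, which turned to -0.07 after quantile normalization.

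The ATP-Mg/phosphate carriers, which adjust the total pool of adenine nucleotides in the matrix and of which the longer forms respond to calcium, did not go one way. Slc25a25 (SCaMC-2) had signals of 206 with ischemia + ES, 302 with ischemia + exercise, 533 with ischemia and 751 in sham. Both treated arrays lay below the ischemia array, and the ischemia array below sham. Slc25a25 was 2.58-fold lower with ES than with ischemia, 1.77-fold lower with exercise than with ischemia, and 1.41-fold lower with ischemia than in sham. Against sham directly it was 3.64-fold lower with ES, where 1.06% of all genes were 2-fold lower, and 2.49-fold lower with exercise, where 0.188% were. It has 1 probe set on this array, so the order has no second reading. Its promoter run above holds both a cyclic AMP response element and an E-box, and their part in its signals was not tested.

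Slc25a24, a close relative, had signals of 221 with ischemia + ES, 159 with ischemia + exercise, 201 with ischemia and 149 in sham. It was higher on the ES and ischemia arrays than on the exercise and sham arrays. The summed macrophage and fibroblast signals had the same split, with 8 of 10 macrophage and 4 of 6 fibroblast markers showing it singly. Bright genes such as Lyz2 and Col3a1 weigh most in these sums. The share of all genes with this split was not counted, so the marker counts have no baseline. Slc25a24 was 1.35-fold higher with ischemia than in sham and 1.27-fold lower with exercise than with ischemia, and the part of those cells was not tested. Slc25a23 had signals of 76.8 with ischemia + ES, 104 with ischemia + exercise, 103 with ischemia and 116 in sham, 1.34-fold lower with ES than with ischemia, but its other probe set above the floor had a log2 ratio of -0.02. Slc25a41, the short form without calcium control, stayed under the floor on all 4 arrays.

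**Figure D3:**
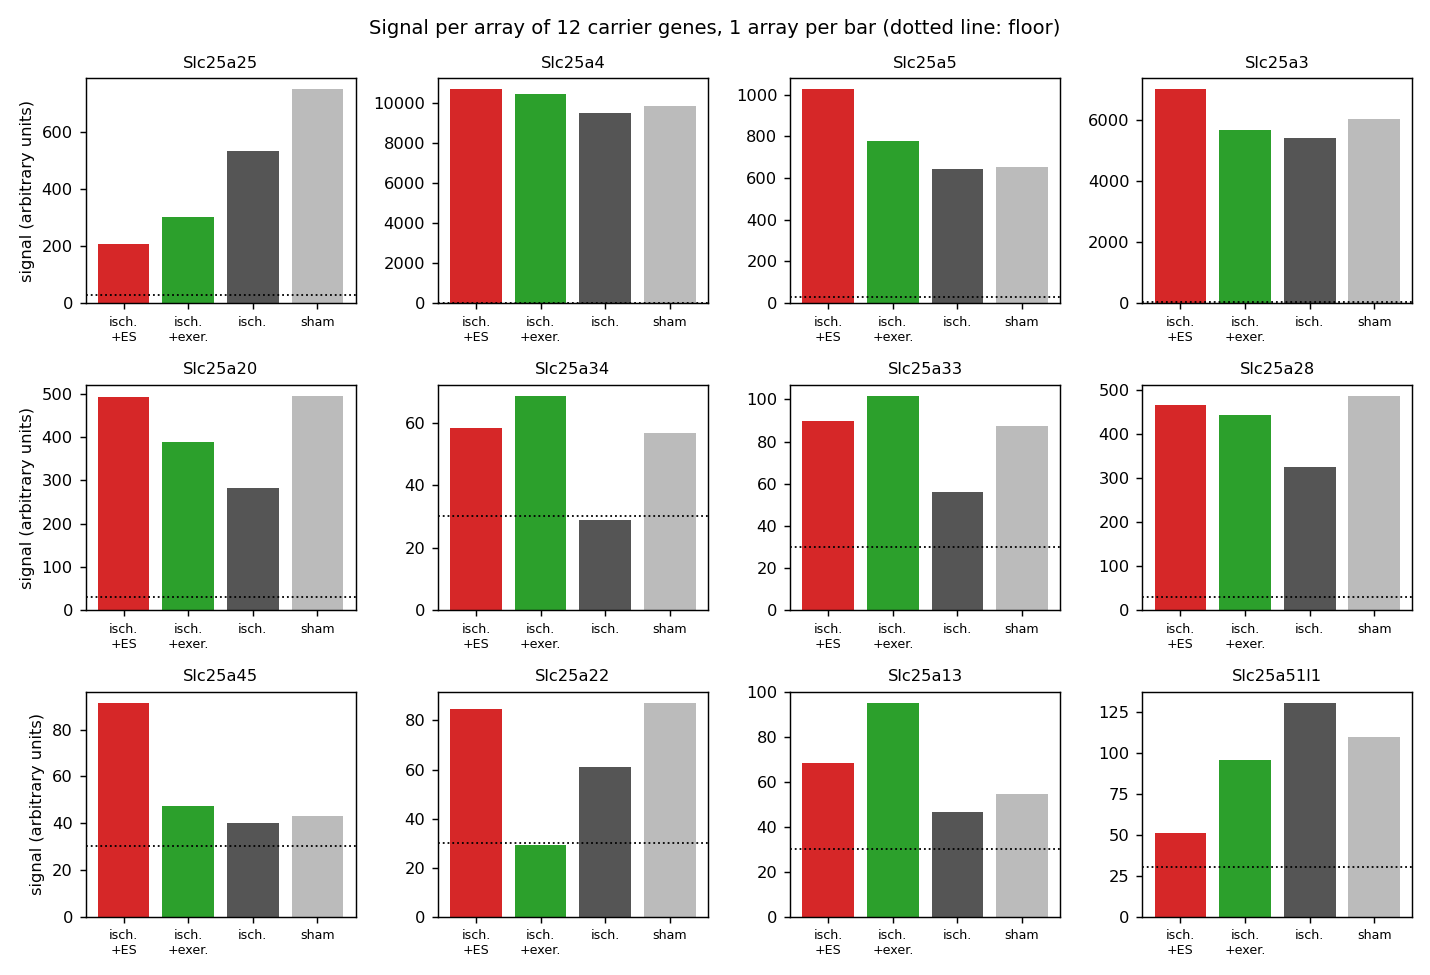
Signal in arbitrary units (vertical axis, from 0) of 12 carrier genes on the ischemia + ES, ischemia + exercise, ischemia and sham arrays, 1 array per bar; the dotted line is the floor of 30.1. Slc25a25 stands at 206, 302, 533 and 751 in that order, and Slc25a20, Slc25a28, Slc25a33 and Slc25a34 have their lowest bar on the ischemia array.

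Fatty acids reach the matrix as acylcarnitines through Slc25a20 (CACT), which had signals of 494 with ischemia + ES, 388 with ischemia + exercise, 282 with ischemia and 496 in sham. The ischemia array was the lowest, ES and sham were nearly equal, and exercise lay between. Slc25a20 was 1.76-fold lower with ischemia than in sham, 1.75-fold higher with ES than with ischemia and 1.38-fold higher with exercise than with ischemia. Some of the enzymes that act with it, but not all, had the same lowest array. Cpt1b, the outer carnitine palmitoyltransferase of muscle, had signals of 2128 with ischemia + ES, 2095 with ischemia + exercise, 1385 with ischemia and 1912 in sham. Cpt2, its partner on the inner membrane, had 739.8 with ischemia + ES, 662 with ischemia + exercise, 513 with ischemia and 694 in sham. Of 10 genes of the carnitine shuttle and beta-oxidation, 8 had a ratio below 0 between ischemia and sham (median -0.32), where 45.6% of all genes did. Between ES and ischemia 9 had a ratio above 0 (median 0.51), where 56.0% of all genes did. Between exercise and ischemia 8 had a ratio above 0 (median 0.24), where 47.7% of all genes did. None of the 10 passed 2-fold in any of these comparisons. Cpt1a, the outer carnitine palmitoyltransferase best known from liver, had signals of 138 with ischemia + ES, 90.5 with ischemia + exercise, 71.1 with ischemia and 55.8 in sham, and Acadvl, the first dehydrogenase for long-chain fatty acids, had 1838 with ischemia + ES, 1226 with ischemia + exercise, 968 with ischemia and 1364 in sham. The cellular carnitine transporter Slc22a5 was below 0 with both treatments, at log2 ratios of -0.45 with ES and -0.39 with exercise against ischemia. Within this list the lowest array was sham for Cpt1a, exercise for Crat and ES for Slc22a5.

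The remaining carboxylate carriers differed less. Slc25a11, the oxoglutarate/malate exchanger of the malate-aspartate shuttle, had signals of 2551 with ischemia + ES, 2126 with ischemia + exercise, 2020.2 with ischemia and 2444 in sham. It was 1.26-fold higher with ES than with ischemia and 1.21-fold lower with ischemia than in sham. The dicarboxylate carrier Slc25a10 had dim signals of 64.5 with ischemia + ES, 58.8 with ischemia + exercise, 46.6 with ischemia and 48.3 in sham, higher on both treated arrays. The citrate carrier Slc25a1, which supplies acetyl units for lipid synthesis in the cytosol, had signals of 63.4 with ischemia + ES, 42.6 with ischemia + exercise, 65.5 with ischemia and 45.4 in sham. Here ES and ischemia lay above exercise and sham, with exercise 1.54-fold lower than ischemia. Slc25a21, the oxodicarboxylate carrier, was under the floor on all 4 arrays.

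Of the aspartate/glutamate exchangers of the malate-aspartate shuttle, Slc25a12 (aralar), the form of muscle and brain, had signals of 2414 with ischemia + ES, 1833 with ischemia + exercise, 1958 with ischemia and 2070.1 in sham. It was 1.23-fold higher with ES than with ischemia and 1.32-fold higher with ES than with exercise, while exercise, ischemia and sham lay within 1.13-fold. Slc25a13 (citrin), the form best known from liver, had dim signals of 68.4 with ischemia + ES, 95.4 with ischemia + exercise, 46.5 with ischemia and 54.6 in sham. Slc25a13 was 2.05-fold higher with exercise than with ischemia, but its other probe set was under the floor on all 4 arrays, and the mean over both probe sets gave a log2 ratio of 0.52. The enzymes of this shuttle were all higher with ES than with ischemia, 4 of 4, where 56.0% of all genes were above 0. Their median log2 ratio was 0.52, or 0.34 after quantile normalization. Among them the cytosolic aspartate aminotransferase Got1 had signals of 2705 with ischemia + ES, 1552 with ischemia + exercise, 1346 with ischemia and 1739 in sham. Got1 was 2.01-fold higher with ES than with ischemia, just past 2-fold, where 2.28% of all genes were 2-fold higher. With exercise against ischemia 3 of 4 of these enzymes were above 0, where 47.7% of all genes were. Their median was 0.17, or 0.06 after quantile normalization.

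The glycerol phosphate shuttle brings cytosolic reducing equivalents to the respiratory chain without a carrier. For ischemia against sham and ES against ischemia, its 2 genes had log2 ratios opposite in sign to the malate-aspartate enzyme medians (-0.24 and 0.52). Gpd2, its mitochondrial enzyme, had signals of 483 with ischemia + ES, 592 with ischemia + exercise, 766 with ischemia and 454 in sham, 1.69-fold higher with ischemia than in sham and 1.59-fold lower with ES than with ischemia. Gpd1, the cytosolic enzyme, had log2 ratios of 0.18 and -0.30 in the same comparisons.

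Among the other amino acid carriers, the glutamate carrier Slc25a22 had signals of 84.5 with ischemia + ES, 29.2 with ischemia + exercise, 61.2 with ischemia and 87.2 in sham. The exercise array was the only one at the floor, so Slc25a22 was at least 2.03-fold lower with exercise than with ischemia, at least 2.90-fold lower with exercise than in sham and at least 2.80-fold higher with ES than with exercise. The second glutamate carrier, Slc25a18, was under the floor throughout. Slc25a15, the ornithine carrier of the urea cycle, had signals of 146 with ischemia + ES, 135 with ischemia + exercise, 108 with ischemia and 147 in sham, lowest with ischemia. The other 3 probe sets of Slc25a15 that were above the floor on all 4 arrays had log2 ratios for ischemia against sham of 0.03, -0.12 and -0.17, against -0.45 for the brightest. The basic amino acid carrier Slc25a29 had signals of 74.4 with ischemia + ES, 80.2 with ischemia + exercise, 57.7 with ischemia and 86.8 in sham and was lower with ischemia than in sham, at a log2 ratio of -0.59. Slc25a38, which brings in glycine for heme synthesis, had signals of 82.5 with ischemia + ES, 120.5 with ischemia + exercise, 127 with ischemia and 134 in sham, and was 1.54-fold lower with ES than with ischemia.

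The branched-chain amino acid carrier Slc25a44 was the flattest of those named, with signals of 173 with ischemia + ES, 176 with ischemia + exercise, 181 with ischemia and 181 in sham. Its second probe set had a log2 ratio of -0.38 for exercise against ischemia, where the first had -0.04. Of 9 genes of branched-chain amino acid breakdown, none passed 2-fold in these comparisons. With ES against ischemia, the branched-chain aminotransferase Bcat2 had a log2 ratio of -0.71 and the dehydrogenase subunit Dbt one of -0.71, while Bckdk, the kinase that restrains that dehydrogenase, had 0.52. The other subunits of the dehydrogenase lay above 0 in this comparison, at 0.26 for Bckdha, 0.13 for Bckdhb and 0.16 for Dld.

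Cofactor and nucleotide carriers included 1 further gene with a clear low on the ischemia array. Slc25a33, a pyrimidine nucleotide carrier, had signals of 89.9 with ischemia + ES, 102 with ischemia + exercise, 56.1 with ischemia and 87.4 in sham. It was 1.56-fold lower with ischemia than in sham, 1.60-fold higher with ES than with ischemia and 1.81-fold higher with exercise than with ischemia. The other pyrimidine nucleotide carrier, Slc25a36, had signals of 549.9 with ischemia + ES, 576 with ischemia + exercise, 513 with ischemia and 614 in sham on its brightest probe set. Its dimmer probe set was also lowest with ischemia and differed more, with log2 ratios of -0.70 for ischemia against sham and 1.07 for exercise against ischemia. Slc25a42, which carries coenzyme A, had signals of 202 with ischemia + ES, 158 with ischemia + exercise, 129 with ischemia and 131 in sham, and was 1.56-fold higher with ES than with ischemia, with ischemia and sham close together.

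The remaining cofactor carriers differed little. Slc25a39, which carries glutathione, had signals of 565 with ischemia + ES, 483 with ischemia + exercise, 497 with ischemia and 563 in sham. The folate carrier Slc25a32 had signals of 87.7 with ischemia + ES, 98.9 with ischemia + exercise, 103 with ischemia and 115 in sham, with sham the highest. Slc25a16 had signals of 95 with ischemia + ES, 98.4 with ischemia + exercise, 86.8 with ischemia and 103 in sham, with ischemia the lowest and sham the highest. Slc25a17, a carrier of the peroxisome, was 1 of the few with sham as its lowest array, at 241 with ischemia + ES, 243 with ischemia + exercise, 257 with ischemia and 205 in sham.

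The iron carriers, or mitoferrins, bring iron in for heme and iron-sulfur clusters. Slc25a28, the form of most tissues, had signals of 465 with ischemia + ES, 442 with ischemia + exercise, 324 with ischemia and 486 in sham. It was 1.44-fold higher with ES than with ischemia, 1.36-fold higher with exercise than with ischemia and lower with ischemia than in sham by just under 1.5-fold (log2 ratio -0.58). Slc25a37, the form of developing red cells, hovered at the floor with 27.7 with ischemia + ES, 39.4 with ischemia + exercise, 38.3 with ischemia and 31.1 in sham. The 3 erythroid markers on the array summed to 6898 with ischemia + ES, 7179 with ischemia + exercise, 7151 with ischemia and 10600 in sham. Hbb made up nearly all of each sum, at 6766, 7044, 6999 and 10334 in that order. Alas2 was also highest in sham, while Slc4a1 was above the floor only with exercise, at 37.4. The part of red cells in the iron carriers' ratios was not tested.

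Carriers whose substrate is unsettled held 2 of the larger ratios. Slc25a34 had signals of 58.4 with ischemia + ES, 68.7 with ischemia + exercise, 28.8 with ischemia and 56.8 in sham. With the ischemia array at the floor, it was at least 1.89-fold lower with ischemia than in sham, at least 1.94-fold higher with ES than with ischemia and at least 2.28-fold higher with exercise than with ischemia. Slc25a45 had signals of 91.5 with ischemia + ES, 47.5 with ischemia + exercise, 40.0 with ischemia and 43.1 in sham, and only the ES array stood above the other 3. It was 2.29-fold higher with ES than with ischemia and 2.13-fold higher with ES than in sham. The log2 ratio for ES against sham, 1.09, was 0.95 after quantile and 0.97 after loess normalization, short of 2-fold. Slc25a35 had signals of 65.6 with ischemia + ES, 53.8 with ischemia + exercise, 52.3 with ischemia and 72.6 in sham. Slc25a46, an outer membrane protein tied to mitochondrial fission, had signals of 1441 with ischemia + ES, 1428 with ischemia + exercise, 1329 with ischemia and 1386 in sham, but its second probe set had a log2 ratio of -0.53 for ES against ischemia. Slc25a48 and Slc25a53 were under the floor on all 4 arrays on their brightest probe sets.

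Of the carriers related to uncoupling proteins, Slc25a30 had signals of 183 with ischemia + ES, 237 with ischemia + exercise, 303 with ischemia and 301 in sham. It was 1.65-fold lower with ES than with ischemia and 1.28-fold lower with exercise, with ischemia and sham nearly equal. Slc25a14 had signals of 27.1 with ischemia + ES, 31.2 with ischemia + exercise, 27.9 with ischemia and 32.6 in sham, at or next to the floor on every array, and Slc25a27, known from brain, was under the floor on all 4.

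Slc25a51l1, a gene named for its likeness to Slc25a51, had signals of 50.9 with ischemia + ES, 95.7 with ischemia + exercise, 130.4 with ischemia and 109.7 in sham and was 2.56-fold lower with ES than with ischemia. Slc25a51 itself is annotated on 2 probe sets that each list 2 gene identifiers, so it was not counted among the 40. The log2 ratios of those probe sets for ES against ischemia were -0.32 and -0.10. Transcripts of such near copies may share probes, and the value of Slc25a51l1 is uncertain for that reason.

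Lists of genes that work beside the carriers differed in direction with ES against ischemia, where 56.0% of all genes were above 0. With exercise against ischemia 47.7% of all genes were above 0. With ischemia against sham 50.3% of all genes were above 0 and 45.6% below. Of 13 ATP synthase subunits, all 13 had a ratio above 0 with ES against ischemia (median log2 ratio 0.28, or 0.11 after quantile normalization), and 12 of 13 a ratio below 0 with ischemia against sham (median -0.09, or 0.00 after quantile normalization). None passed 2-fold. The count above 0 with ES against ischemia was 6 of 11 for heme and iron-sulfur genes (median 0.06), 3 of 5 for creatine and adenylate kinases (median 0.11), 4 of 9 for branched-chain amino acid breakdown (median -0.05) and 3 of 8 for serine, glycine and folate enzymes (median -0.10). Of 14 other mitochondrial transporters and channels, 9 were above 0 with ES against ischemia, 7 with exercise against ischemia and 2 with ischemia against sham, and none passed 2-fold. The mitochondrial calcium channel Mcu had the lowest signal with ischemia, at 538 with ischemia + ES, 522 with ischemia + exercise, 370.0 with ischemia and 487 in sham. The pyruvate carrier subunit Mpc2 had signals of 5779 with ischemia + ES, 3832 with ischemia + exercise, 4044 with ischemia and 5012 in sham, with ES the highest, and the outer membrane channel Vdac1 had log2 ratios of 0.09 with ES and -0.06 with exercise against ischemia. Sfxn4, of the sideroflexin family, had the largest ratios of this list for ES against ischemia and for ischemia against sham, at 0.63 and -0.65 on the log2 scale. Its signals were dim, at 56.6 with ischemia + ES, 53.7 with ischemia + exercise, 36.7 with ischemia and 57.4 in sham. Ckmt2, the mitochondrial creatine kinase of striated muscle, which passes on ATP leaving through Slc25a4, had signals of 11245 with ischemia + ES, 9068 with ischemia + exercise, 8031 with ischemia and 9375 in sham. Ckb, the cytosolic creatine kinase best known from brain, was 1.87-fold lower with ES than with ischemia.

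**Figure D4:**
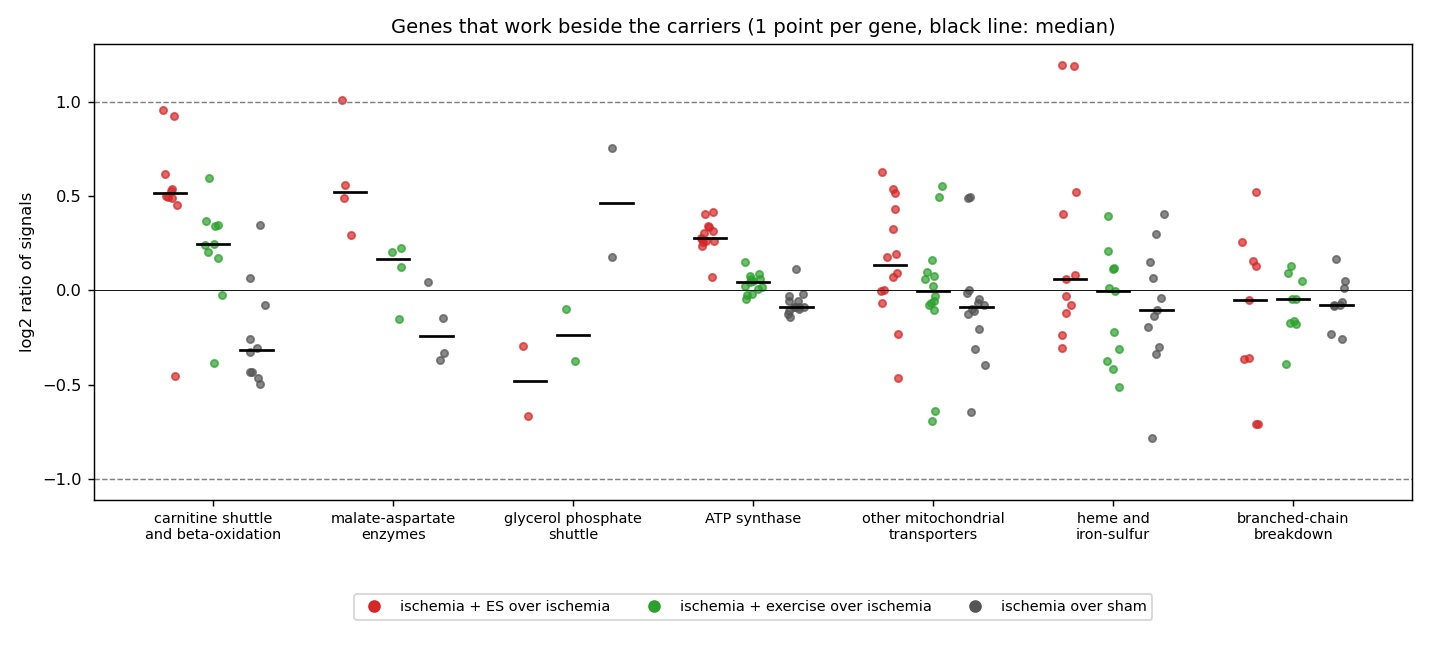
Log2 ratio of signals (vertical axis) of genes in 7 lists that work beside the carriers, 1 point per gene, for ischemia + ES over ischemia (red), ischemia + exercise over ischemia (green) and ischemia over sham (grey); black lines are list medians. The carnitine shuttle and beta-oxidation list has medians of 0.51, 0.24 and -0.32 in that order, and the 2 genes of the glycerol phosphate shuttle lie on the other side of 0.

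The order of the arrays in the slow-fibre markers was shared only in part by the carriers that were low with ischemia. All 9 were 2-fold lower with ischemia than in sham, where 0.862% of all genes were. All 9 were also 2-fold higher with exercise than with ischemia, where 1.14% of all genes were. With ES 4 of 9 were 2-fold higher than with ischemia, where 2.28% of all genes were. The carriers Slc25a20, Slc25a28, Slc25a33 and Slc25a34 shared the low on the ischemia array with these markers. With ES against sham, the log2 ratio was -0.01 for Slc25a20 and -0.06 for Slc25a28, while the slow-fibre markers summed to 20851 with ischemia + ES and 57854 in sham. Slc25a33 and Slc25a34 were highest with exercise and lowest with ischemia, as the summed slow-fibre markers were. Their log2 ratio for ES against sham was 0.04 each. The part of fibre type in these carriers was not tested.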

How the data were processed

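Biotin-labelled RNA of rat skeletal muscle was measured on 4 single-colour 3′ arrays, 1 per group, with groups taken from the titles. The authors deposited 1 linear intensity per probe set and array, which MAS5 software had computed, per the submitters' processing notes (no version stated). The deposited arrays share a 2% trimmed mean of 150.1, so a difference in total mRNA cannot be seen. The platform annotation of 2016 gave 1 symbol to 20832 of 31099 probe sets, several to 436 (not named) and none to 9831. All 40 carrier identifiers matched the RefSeq table (GRCr8).

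Arrays were brought to a common trimmed mean, signals under the 50th percentile (30.1) were raised to it, and log2 was taken. A ratio against an array at this floor is a bound ("at least"). A gene counted as different at 2-fold, and 10092 genes above the floor on 1 or more arrays were compared. With 1 array per group no test was run, and the number of arrays limits the precision. Signals are compared for 1 gene across arrays, never between genes. Named were all carriers at 1.5-fold or more in a comparison, all past 2-fold, 8 carriers chosen by name, and the genes of other lists with large ratios; other carriers and list genes were named after their values were seen. The members, lists and rules were chosen with earlier results of these data known. Alternatives were quantile and cyclic loess normalization (limma 3.58.1), a lower or higher floor (30th and 70th percentile), 1.5-fold and 3-fold limits, the mean of all probe sets, and leaving out probe sets marked _x_at or _s_at. The calculations ran in Python 3.11.15 and were tested on simulated data.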

Additional observations from a re-analysis of the deposited data

How the results depend on the processing

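Of 7 carrier ratios past 2-fold in the 4 comparisons, all 7 kept their direction and stayed past 2-fold under quantile and loess normalization, a floor at the 30th percentile and without the _x_at and _s_at probe sets, and none reached 3-fold. With a floor at the 70th percentile 1 of 7 stayed past 2-fold (Slc25a25 with ES), since the other 6 have an array under that floor. With the mean of all probe sets Slc25a13 fell short for exercise against ischemia. For ischemia against sham, the count of carriers 2-fold lower was 0, with 1 under loess normalization and 4 at 1.5-fold. For ES against ischemia, 1 was higher, with 2 at the lower floor, 0 at the higher floor, 6 at 1.5-fold and 0 at 3-fold, and 2 were lower, with 1 at the higher floor, 4 at 1.5-fold and 0 at 3-fold. For exercise against ischemia, 2 were higher, with 3 at the lower floor, 0 at the higher floor, 3 at 1.5-fold, 0 at 3-fold and 1 with the mean of probe sets. In that comparison 1 was lower, with 0 at the higher floor, 3 at 1.5-fold and 0 at 3-fold. For ES against exercise, 1 was higher, with 0 at the higher floor, 2 at 1.5-fold and 0 at 3-fold, and 0 were lower, with 1 under quantile normalization and 1 at 1.5-fold. The carrier median for ES against exercise, 0.01, was -0.0304 under quantile normalization, and the cause was not tested. The other carrier medians kept their sign under the alternatives run, but are small and moved by over 1.5 times in places: for ischemia against sham -0.16 became -0.08 with the higher floor and -0.09 with the mean of probe sets, and for exercise against ischemia 0.07 became 0.01 with the higher floor, 0.04 under quantile normalization and 0.04 with the mean of probe sets. No scaling moved the median of all genes by 0.1 or more. No paired analysis was possible because each group has 1 array, and no replicate could be left out.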

Other observations

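Members of the carrier family that keep other symbols, and so fell outside the 40 genes, mostly did not share the low on the ischemia array: of the 4 above the floor, Mtch1 had its lowest signal there. Ucp3, the uncoupling protein of skeletal muscle, had signals of 1451 with ischemia + ES, 849 with ischemia + exercise, 1174 with ischemia and 689 in sham, and had a log2 ratio of 0.77 for ischemia against sham. Ucp2 had signals of 81.3 with ischemia + ES, 52.5 with ischemia + exercise, 70.9 with ischemia and 69 in sham. Mtch1, an outer membrane relative, had signals of 841 with ischemia + ES, 621 with ischemia + exercise, 589.7 with ischemia and 661 in sham, and Mtch2 differed little between arrays, at 3214 with ischemia + ES, 3110.4 with ischemia + exercise, 3183 with ischemia and 3290.4 in sham. Ucp1, the uncoupling protein of brown fat, was under the floor on all 4 arrays.

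Of 11 heme and iron-sulfur genes compared, 2 were 2-fold higher with ES than with ischemia, where 2.28% of all genes were. Tfrc, the transferrin receptor through which cells take up iron, had signals of 8581 with ischemia + ES, 3219 with ischemia + exercise, 3756 with ischemia and 4744 in sham, and was 2.28-fold higher with ES than with ischemia. Alas1, the first enzyme of heme synthesis outside red cells, had signals of 1443 with ischemia + ES, 506 with ischemia + exercise, 629 with ischemia and 646 in sham, and was 2.29-fold higher with ES than with ischemia. Both were 2-fold higher with ES than with exercise too, where 2.95% of all genes were, at log2 ratios of 1.41 and 1.51. The other 9 were within 2-fold in both comparisons, among them Alas2, the red-cell form, with signals of 112 with ischemia + ES, 97.4 with ischemia + exercise, 139 with ischemia and 239.5 in sham. These genes come from a list written with earlier results of these data known. Among 8 genes of serine, glycine and folate metabolism, Aldh1l2, a mitochondrial folate enzyme, had signals of 91.1 with ischemia + ES, 22.9 with ischemia + exercise, 106 with ischemia and 36.5 in sham, with exercise at the floor and sham close to it. It was the 1 gene of the 8 that was 2-fold higher with ischemia than in sham, at 2.90-fold, where 0.783% of all genes were. Its ES and ischemia signals lay above exercise and sham, as did the summed macrophage and fibroblast signals, and the part of those cells was not tested.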
